A study of Rattus norvegicus with 16 samples.

Results

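Signals of the rat genes for major histocompatibility complex (MHC) class I molecules were compared in bone of 4 inbred strains. The genes were the heavy chains RT1-A, RT1-CE16, RT1-CE5 and RT1-T24-4, the light chain B2m, the peptide transporter subunits Tap1 and Tap2, and the chaperone Tapbp. Members were all probe sets whose single symbol in the platform annotation was one of these 8, which gave 8 of the 14217 genes named on the array and 14 of its 31099 probe sets. The genes were chosen by the difference in RT1 signals between F344 and LEW, so that difference is given below as a description with no test. A further 3 probe sets list a member together with other symbols and were not used.

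The study measured total RNA of the proximal femur on 16 Affymetrix rat arrays. There were 4 arrays for each of the inbred strains Fischer 344 (F344), Lewis (LEW), Copenhagen 2331 (COP) and Dark Agouti (DA). All were 4-week-old animals with no treatment or engineered allele named in the labels. The labels do not say that the 4 arrays of a strain came from separate animals, nor their sex, so p-values measure only the spread between these arrays, which may be technical. Per array, the median signal was 303 to 325 (arbitrary units, scaled by the authors), the correlation of log2 signals was 0.977 to 0.989 within a strain and 0.962 to 0.973 between strains, and 16 of 16 arrays correlated best with an array of their own strain. Of the bone markers, Col1a1 had a median signal of 63507, Bglap 53031, Ibsp 29502 and Alpl 1647. Cartilage, muscle and marrow markers were also measured in the pieces and reached similar levels. Median signals were 55680 for Col2a1 (cartilage), 56703 for Acta1 (muscle), 64103 for S100a9 (neutrophils) and 58447 for Hbb (erythroid). In such mixed tissue, fewer cells of a type and less RNA per cell cannot be told apart.

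As background, a class I molecule is a heavy chain held together with the light chain B2m. The transporter made of Tap1 and Tap2 brings peptides into the endoplasmic reticulum, where Tapbp (tapasin) holds the empty heavy chain next to it until a peptide binds. The finished molecule shows the peptide to CD8 T cells and is read by receptors of natural killer cells, and nearly all nucleated cells carry it, marrow cells included. RT1-A encodes the classical heavy chain of the rat, and the CE and T24 genes belong to other clusters of class I heavy chains that are close copies of each other and differ in number between haplotypes. COP and DA are known to carry the same RT1 haplotype, and F344 and LEW carry related haplotypes that differ in the class I region.

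In the RefSeq gene table of the assembly GRCr8, 7 of the 8 genes were found, B2m on chromosome 3 and the others on chromosome 20. RT1-A is named only, since its identifier is not among the entries of that table. Along chromosome 20 the order was RT1-T24-4, RT1-CE16, RT1-CE5, Tap2, Tap1, the genes RT1-A3, RT1-A2 and RT1-A1, and Tapbp. RT1-T24-4 overlaps RT1-T24-3, and the span of RT1-CE5 also holds RT1-CE6 and RT1-CE7. Probes for these heavy chains can therefore be shared. Of all 14 member probe sets, 7 had the suffix _x_at, _s_at or _a_at, which marks probes that match more than 1 transcript. These include the B2m probe set 1367595_s_at, and the rest are for heavy chains. They are set apart below from the 7 that end in plain _at. A lower signal from less transcript and one from an allele that matches the probes less well cannot be told apart between strains.

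The stretches before the starts of RT1-CE16, RT1-CE5, RT1-T24-4 and Tap2 are shown because, of the genes in the promoter table, these 4 differed most between strain means and because their regulatory letters differ. They come from RefSeq, GRCr8, a reference of another strain, and each is the 250 bases before the annotated start, 5′ to 3′ on the strand of the gene. Capitals mark GGGATTCC, the core of the enhancer A element known from class I promoters, and the interferon-response core TTTCACTT or its reverse complement. RT1-CE16 lies at chr20:3265444-3265693, minus strand, RT1-CE5 at chr20:3484091-3484340, minus strand, RT1-T24-4 at chr20:2689083-2689332, plus strand, and Tap2 at chr20:4652297-4652546, minus strand. The gene records of the 3 heavy chains reach somewhat past that start.
RT1-CE16: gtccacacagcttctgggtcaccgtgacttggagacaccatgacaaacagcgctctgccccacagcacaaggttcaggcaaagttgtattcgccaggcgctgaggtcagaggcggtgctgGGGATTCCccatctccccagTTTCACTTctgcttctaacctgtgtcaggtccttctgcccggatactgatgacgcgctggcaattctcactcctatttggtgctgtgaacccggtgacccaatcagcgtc
RT1-CE5: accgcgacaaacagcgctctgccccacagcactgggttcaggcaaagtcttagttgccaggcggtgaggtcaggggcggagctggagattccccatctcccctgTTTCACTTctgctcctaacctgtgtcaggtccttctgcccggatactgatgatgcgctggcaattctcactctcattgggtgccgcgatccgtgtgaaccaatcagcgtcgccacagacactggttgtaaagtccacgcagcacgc
RT1-T24-4: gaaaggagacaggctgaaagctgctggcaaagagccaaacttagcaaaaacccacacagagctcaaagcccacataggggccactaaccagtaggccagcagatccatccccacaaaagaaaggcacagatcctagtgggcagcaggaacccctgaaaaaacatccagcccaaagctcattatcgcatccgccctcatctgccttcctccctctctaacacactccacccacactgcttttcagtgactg
Tap2: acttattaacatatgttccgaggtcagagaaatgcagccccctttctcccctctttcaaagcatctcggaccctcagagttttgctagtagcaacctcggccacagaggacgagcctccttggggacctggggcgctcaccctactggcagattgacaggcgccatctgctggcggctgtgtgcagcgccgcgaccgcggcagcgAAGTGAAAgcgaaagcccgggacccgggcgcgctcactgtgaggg

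The exact enhancer A core GGGATTCC was present, searching both strands, in 1 of the 7 member promoters in the RefSeq table (RT1-CE16, 130 to 123 bases before the start) and in 337 of 33469 promoters overall (1.01%). The closest window in RT1-CE5 was GAGATTCC, 1 substitution away (G2A, counted from the 5′ end of the core). The interferon-response core TTTCACTT does not overlap it and was found, on either strand, in 4 of 7 member promoters, those of RT1-CE16, RT1-CE5, Tap2 and Tapbp, and in 500 of 33469 overall (1.49%). RT1-CE16 held both, as did 13 promoters in all (0.0388%). The RT1-T24-4 window held neither exact core, nor did those of B2m and Tap1. These matches describe the reference letters only.

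RT1-A, the classical heavy chain, was measured by a plain probe set (1370429_at) and was brightest in F344. Its signal in the 4 arrays was 1037, 1051, 908 and 1365 in F344, against 208, 172, 232 and 117 in LEW. It was 329, 285, 285 and 357 in COP and 221, 209, 260.5 and 206 in DA. All F344 arrays lay above all others, COP lay above DA and LEW without overlap, and DA and LEW overlapped. The F344 mean of 1090.5 ± 194 (SD, n = 4) was 6.11-fold the LEW mean of 182 ± 50.2 on the log2 scale of the fit (log2 difference 2.61, SE 0.18). Relative to F344, the log2 difference was 1.79 to COP and 2.27 to DA. The LEW mean was dim, close to the signal of 174 at which the filter over all arrays was set. With a pseudocount of 19.3 added to every signal, F344 minus LEW was 2.48.

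RT1-CE16, a class I heavy chain of the CE cluster, was measured by a shared probe set (1370463_x_at) and was dimmest in LEW. Its signal was 1221, 1020.1, 1194 and 1039 in F344 and 184, 174, 97 and 164 in LEW. It was 1108, 994, 1049 and 801 in COP and 852, 977, 767 and 773 in DA. F344 and COP overlapped, as did COP and DA, while the F344 arrays lay above the DA arrays (log2 difference 0.41) and every LEW array lay below every other array. The log2 difference of F344 minus LEW was 2.89 (SE 0.16, 7.43-fold), and that of LEW minus COP was -2.71 and of LEW minus DA was -2.48. The LEW mean of 155 was dim, under the signal of 174 at which the filter over all arrays was set. With a pseudocount of 19.3 added to every signal, F344 minus LEW was 2.74.

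RT1-T24-4, a heavy chain gene of the T24 group, showed the same split at a shared probe set (1389734_x_at). The 4 F344 arrays read 2500.3, 2770.3, 2769.6 and 2675, and the LEW arrays 182, 220.4, 337 and 336. COP read 2281, 3333, 2787 and 3389, and DA 2782, 2929, 3587 and 2607. The F344, COP and DA arrays overlapped one another and the LEW arrays lay below them all. F344 minus LEW was 3.37 on the log2 scale (SE 0.16, 10.3-fold), LEW minus COP was -3.49 (11.2-fold) and LEW minus DA was -3.51 (11.4-fold).

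RT1-CE5, another heavy chain of the CE cluster, ran the other way. Its kept shared probe set (1370972_x_at) read 1529, 1534, 1723 and 1722 in LEW, and 377, 289.7, 246 and 417 in F344. COP read 230.4, 338, 362 and 264 and DA 295, 274, 248 and 308, so that the 3 strains other than LEW overlapped. The log2 difference of F344 minus LEW was -2.32 (SE 0.16, 4.99-fold), of LEW minus COP 2.47 and of LEW minus DA 2.53.

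**Figure D1:**
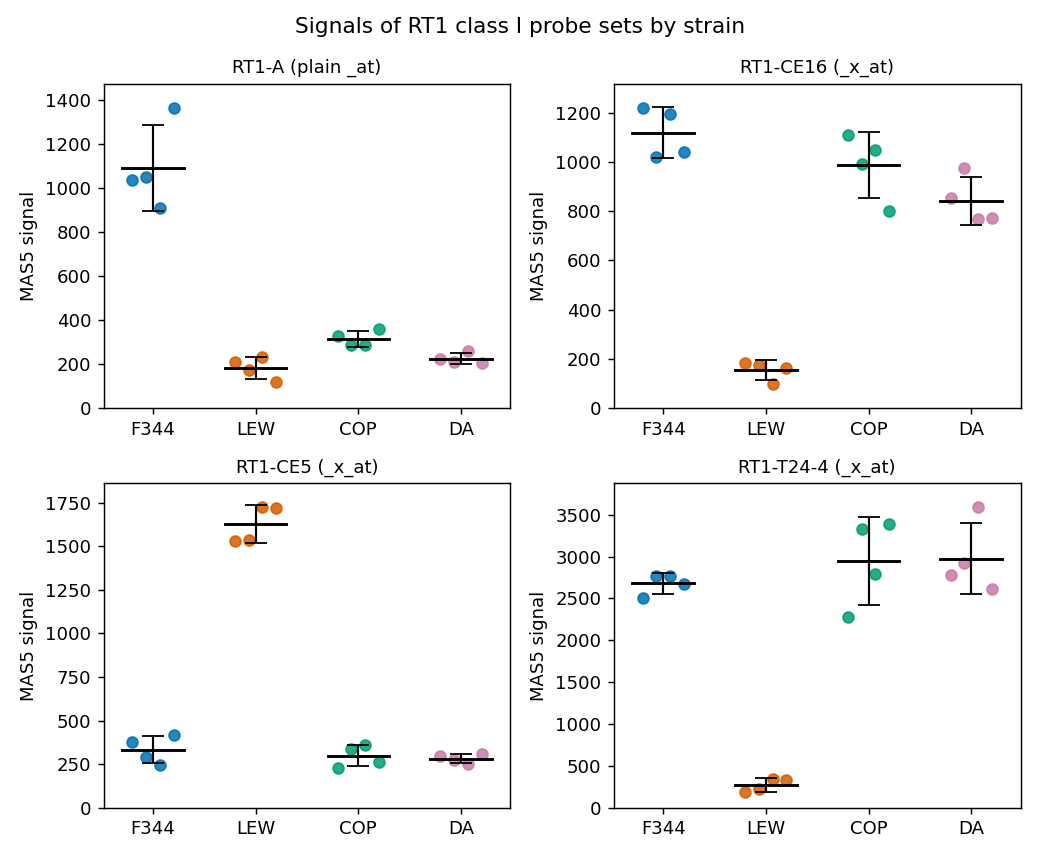
Array signal (MAS5 signal, arbitrary units, linear axis from 0) of the 4 kept RT1 heavy-chain probe sets in each strain; each point is 1 array (n = 4 a strain), the bar is the strain mean and the whiskers are 1 SD. F344 is alone at the top for RT1-A, LEW is alone at the bottom for RT1-CE16 and RT1-T24-4, and LEW is alone at the top for RT1-CE5.

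The gene RT1-CE5 has 5 probe sets, and they did not read alike. Its only plain one (1371209_at) was left out of the fit because its mean log2 signal fell under the filter, and it read 2.9, 1.27, 5.45 and 4.89 in F344, near the floor of 1. The same probe set read 1648, 1223, 1280.3 and 944 in LEW, 339, 476, 461 and 435 in COP and 639, 462, 531 and 406 in DA. LEW was thus brightest here too, but F344 lay apart below COP and DA, with which it overlapped at the kept probe set. No fold is given against F344, whose signals lie near the floor. A shared probe set outside the fit (1388255_x_at) also put F344 lowest, at 4.19 to 37.8, with LEW at 373 to 599, COP at 237 to 385 and DA at 198 to 329. Another (1371210_s_at) read 224 to 274 in LEW and 59.5 to 203 in the other 3 strains. The last (1388254_a_at) was dim throughout, at 2.83 to 33.8.

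**Figure D2:**
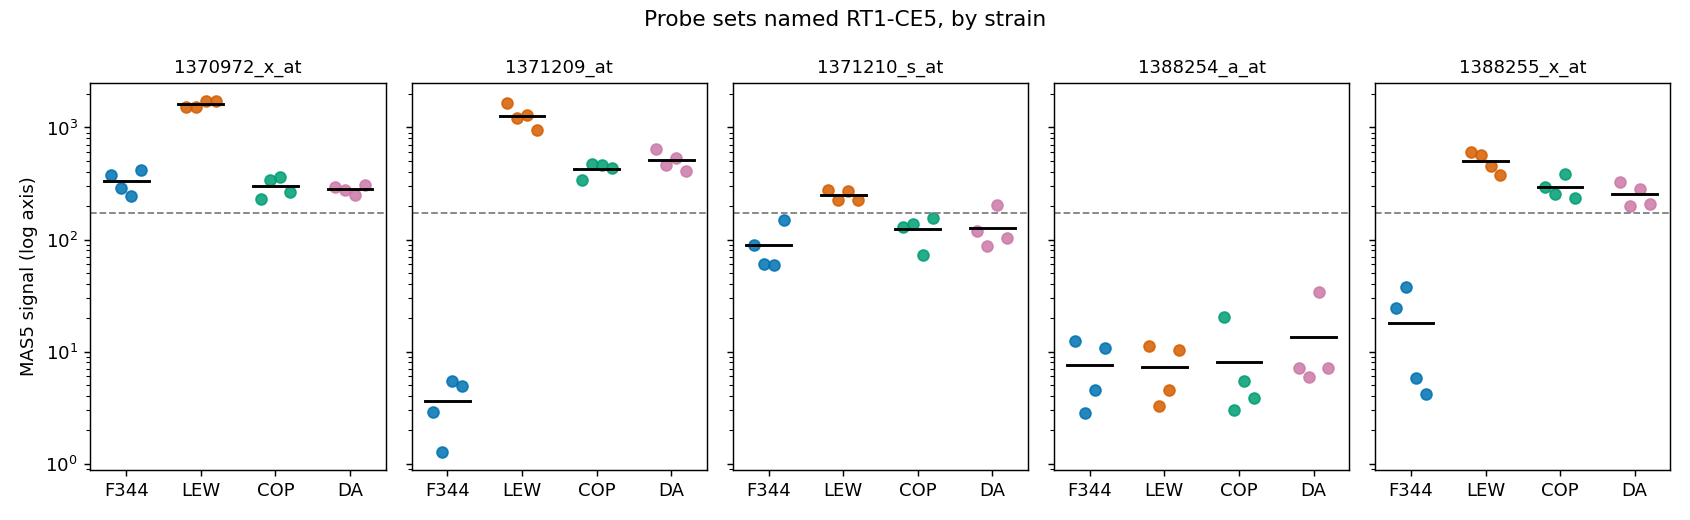
Array signal (MAS5 signal, arbitrary units, log axis) of all 5 RT1-CE5 probe sets by strain; points are arrays, bars are strain means and the dashed line is the filter at a signal of 174, applied to the mean log2 over all 16 arrays. LEW has the highest mean at 4 of the 5, F344 falls near the floor at 1371209_at but not at the kept 1370972_x_at, and 1388254_a_at is dim in every strain.

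The light chain B2m was bright in all strains. Its plain probe set (1371440_at) read 9392, 8903, 9427 and 8881 in the F344 arrays and 6425, 6123, 6136 and 6332 in the LEW arrays. It read 7647, 8266, 7097 and 7648 in COP and 8098, 7244, 6784 and 6215 in DA. F344 lay above every other array, and LEW lay below COP and overlapped DA. F344 minus LEW was 0.55 on the log2 scale (SE 0.068, 1.46-fold). The shared B2m probe set (1367595_s_at) spread less between strains, with means of 44767 in DA, 44411 in F344, 40927 in COP and 40708 in LEW, and F344 minus LEW was 0.13 (SE 0.056).

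Tap2, the transporter subunit known for allelic groups in the rat, divided the strains differently. At 1368732_at the 4 COP arrays read 1913, 1899, 1553 and 1792 and the DA arrays 1794, 1700.3, 1580.0 and 1547. The F344 arrays read 931, 698, 666 and 843 and the LEW arrays 1040.2, 796, 947 and 738. Every COP and DA array lay above every F344 and LEW array, with overlap within each pair. The log2 difference was -1.20 for F344 minus COP (2.29-fold) and -1.09 for F344 minus DA (2.13-fold). It was -1.03 for LEW minus COP (2.04-fold) and -0.92 for LEW minus DA (1.89-fold), against -0.17 for F344 minus LEW (SE 0.12).

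Its partner Tap1 showed no such split. The kept probe set (1388149_at) had means of 1062 ± 143 in COP, 1056 ± 216 in LEW, 1046 ± 112 in DA and 1028 ± 170.5 in F344 (SD, n = 4), and all 4 strains overlapped. The other Tap1 probe set (1375379_at) was dim, at 11.9 to 156, and was not kept. Tapbp (1369726_at), the tapasin chaperone, had means of 852 ± 60.4 in COP, 845 ± 68.3 in DA, 833 ± 63.0 in LEW and 725 ± 27.3 in F344. The F344 arrays, at 692 to 754, lay below the COP and DA arrays and touched the LEW range.

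**Figure D3:**
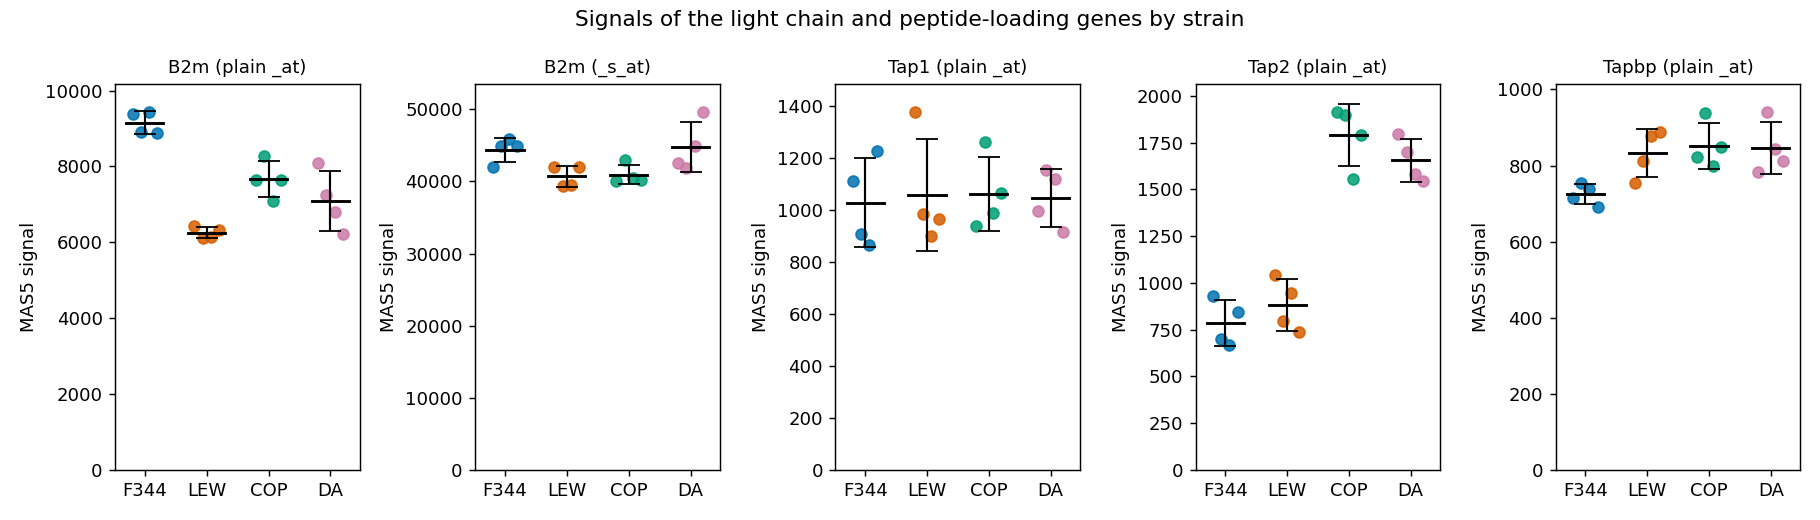
Array signal (MAS5 signal, arbitrary units, linear axis from 0) of the 5 kept probe sets of B2m, Tap1, Tap2 and Tapbp by strain; points are arrays (n = 4 a strain), bars are strain means and whiskers 1 SD. COP and DA lie above F344 and LEW for Tap2, while Tap1 overlaps in all strains.

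Of the 14 probe sets, 9 passed the filter on dim probe sets and were fitted, 4 of them for heavy chains. COP minus DA shares no array with the pair that chose the members and was tested. Both strains are known to carry the same RT1 haplotype, so this pair cannot show how class I haplotypes differ. By limma with Benjamini-Hochberg adjustment over 18625 probe sets, 0 of the 9 were called at an adjusted p under 0.05, against 11.9% of all probe sets, and 2 of the 9 had an unadjusted p under 0.05. The arrays did not overlap for 1 of the 9, against 16.4% of all. RT1-A was that probe set, higher in COP by 0.49 on the log2 scale (95% interval 0.10 to 0.87, limma adjusted p = 0.0924). Over 15 alternative settings its adjusted p ranged from 0.0761 to 0.193.

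The other heavy chains had intervals that included 0. COP minus DA was 0.23 for RT1-CE16 (-0.11 to 0.56, limma adjusted p = 0.41), 0.067 for RT1-CE5 (-0.27 to 0.40, limma adjusted p = 0.847) and -0.021 for RT1-T24-4 (-0.36 to 0.32, limma adjusted p = 0.959). The 2 B2m probe sets went opposite ways, 0.12 at the plain one (-0.023 to 0.26, limma adjusted p = 0.289) and -0.13 at the shared one (-0.24 to -0.011, limma adjusted p = 0.152), the latter -0.015 after quantile normalization. Tap2 differed by 0.11 (-0.13 to 0.35, limma adjusted p = 0.608). Tap1 differed by 0.020 (-0.26 to 0.30) and Tapbp by 0.012 (-0.17 to 0.20), and both signs turn under median centring. With no filter, the 5 member probe sets that it had left out, 1371209_at of RT1-CE5 through its low F344 signals, had limma adjusted p-values of 0.715 to 0.987.

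For F344 minus LEW, which chose the members, 5 of the 9 passed the same threshold (4 higher and 1 lower in F344) and 6 did not overlap. Over all probe sets 13.8% passed (6.53% higher and 7.25% lower in F344) and 18.3% did not overlap, and nothing is read from the count. In COP minus DA the median absolute log2 difference of the 4 heavy-chain probe sets was 0.15, beside 0.14 for all probe sets. In F344 minus LEW it was 2.75, which the choice of the members made large, so it is not set against all probe sets. The other 4 pairs share arrays with that choice and are described only. The arrays did not overlap for 4 of 9 in F344 and COP (25.1% of all), 5 in F344 and DA (21.5%), 6 in LEW and COP (17.4%) and 4 in LEW and DA (13.4%).

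**Figure D4:**
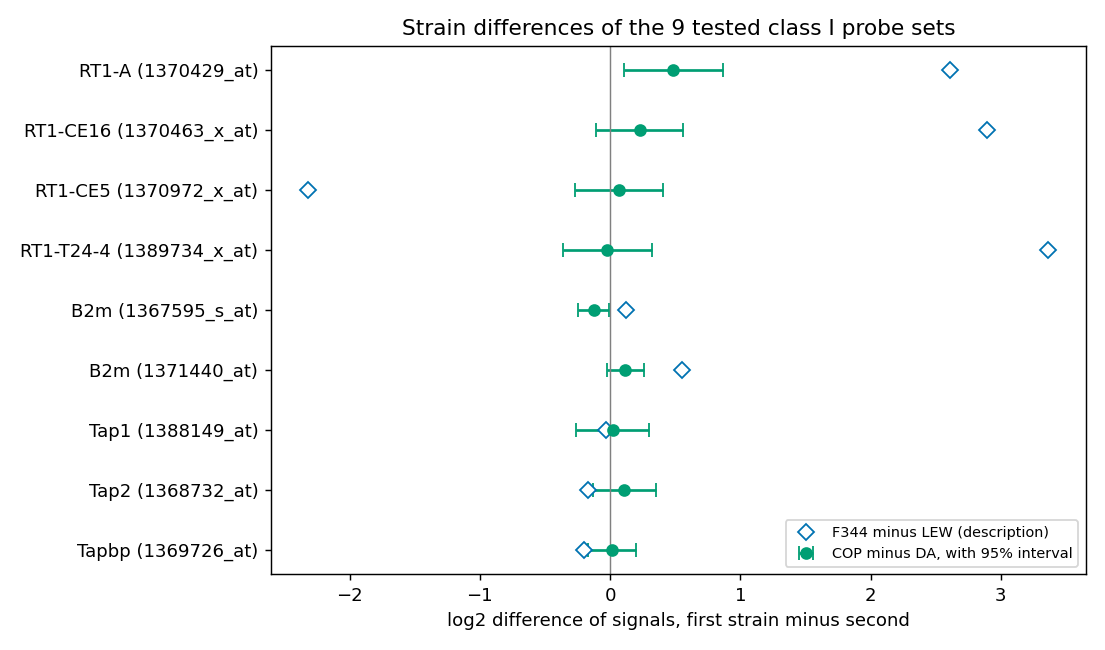
Log2 difference of each of the 9 kept member probe sets (rows); filled circles are COP minus DA with the 95% interval of the fit, open diamonds are F344 minus LEW, a description drawn with no interval. The 4 RT1 heavy chains lie at 2.61, 2.89, -2.32 and 3.37 in F344 minus LEW and between -0.021 and 0.49 in COP minus DA.

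The wider class I pathway was followed in a list of 50 genes for peptide trimming, loading, receptors and regulation, chosen with earlier results of these data known. Of 37 with a kept probe set, 6 were higher and 2 lower in COP than DA by limma (21.6%). Of all 10548 genes, 12.2% were called (5.74% higher and 6.42% lower). The list's median log2 difference was 0.067, beside 0.003 for all genes. Creb1, a transcription factor, had means of 2662 in COP and 1423 in DA (log2 difference 0.90, limma adjusted p = 8.28e-08). Uggt1, a folding sensor of the endoplasmic reticulum, was higher by 0.53 (adjusted p = 0.00428, limma) and Psmb10, an immunoproteasome subunit, by 0.32 (adjusted p = 0.00346, limma). Irf1, a transcription factor of the interferon response, was lower in COP (-0.44, limma adjusted p = 0.00554). Of the class I-like genes, the endothelial receptor gene Procr was lower (-0.41, limma adjusted p = 0.0186), a call lost without COP replicate 1 (adjusted p = 0.0505) and without DA replicate 1 (adjusted p = 0.0718).

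In F344 minus LEW, as a description, 7 of the 37 were higher and 1 lower (14.5% of all genes were called, 6.96% higher and 7.54% lower). Creb1 differed by 0.80, Irf1 by 0.78, Nlrc5, a known activator of class I genes, by 0.60 and the chaperone Pdia4 by 0.53. The receptor gene Lilrb4 differed by 0.50. Of 8 further class I symbols, 6 were kept, and 0 were called for COP minus DA (limma), against 12.2% of all genes. In F344 minus LEW 1 of the 6, RT1-T24-3, was called (16.7%, against 14.5% of all genes). RT1-T24-3, which overlaps RT1-T24-4, had a mean of 399 in F344 against 957 in LEW (log2 difference -1.26), opposite in sign to RT1-T24-4.

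Interferon induces class I genes, so 40 interferon-stimulated genes were listed, of which 30 were kept. In COP minus DA 12 were higher and 2 lower (46.7%, against 12.2% of all genes, limma; median log2 difference 0.27, against 0.003 for all genes). Mx2, an antiviral GTPase, was higher in COP by 2.38 (limma adjusted p = 4.72e-06), the ubiquitin ligase Trim25 by 1.28 (adjusted p = 2.22e-09) and Mx1 by 0.82 (adjusted p = 0.00823). Ifit1, which binds viral RNA, differed by -1.94 (adjusted p = 4.29e-08). In F344 minus LEW 13 were higher and 1 lower (46.7%, against 14.5% of all genes), with Cxcl9 at 1.86, Isg15 at 1.02, Usp18 at 0.93 and Irf7 at 0.92.

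The RT1 region, from RT1-M2 to RT1-A1 on chromosome 20, was counted without the class I members that lie in it. Among its 80 other kept genes, 3 were higher and 6 lower in COP than DA (11.2%, against 12.2% of all genes). The 4 with the largest difference were class II genes, RT1-Db1 (-1.08), RT1-Bb (-0.90), RT1-Ba (-0.88) and RT1-Da (-0.80), with limma adjusted p-values of 7.01e-09, 1.21e-07, 0.00567 and 3.74e-08. In F344 minus LEW, 9 of these 80 were higher and 10 lower (23.8%, against 14.5% of all genes), with Ubd at 1.42, RT1-T24-3 at -1.26, RT1-Ba at 1.25 and RT1-Da at 0.92.

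Genes whose log2 signals were most like a heavy chain over the 16 arrays are given as a description, since the arrays share 4 strains. For RT1-A these were Il6st (r = 0.963), Ggh (0.941) and Rab14 (0.938), and for RT1-CE16 Siglec5 (0.977), Ssr1 (0.962) and Tiprl (0.961). For RT1-CE5 they were Dpt (0.964), Ythdf2 (0.959) and C10h5orf15 (0.957), and for RT1-T24-4 Pou2f1 (0.989), Ggact (0.979) and Mfhas1 (0.976). None of the 12 lies on chromosome 20. Among the heavy chains themselves, r was 0.939 for RT1-CE16 and RT1-T24-4, -0.949 for RT1-CE16 and RT1-CE5 and -0.963 for RT1-CE5 and RT1-T24-4. RT1-A was less like the others, with r of 0.586 to RT1-CE16, -0.457 to RT1-CE5 and 0.487 to RT1-T24-4.

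Some markers of marrow cells differed between strains and others did not. Of the 2 measured neutrophil markers, 0 were called in F344 minus LEW and 0 in COP minus DA by limma. Of the 3 measured erythroid markers, 1 was lower in F344 than LEW and 1 was lower in COP than DA. The summed signal of the 4 leukocyte markers was 23560 to 24203 in F344, 25997 to 27995 in LEW, 33730 to 35579 in COP and 26144 to 30463 in DA, with 3 of 4 lower in F344 than LEW and 2 of 4 higher in COP than DA by limma. The 3 measured B-cell markers summed to 3071 to 3489 in F344, 8817 to 8993 in LEW, 6991 to 8526 in COP and 3940 to 5901 in DA, and all 3 were lower in F344 than LEW and 2 were higher in COP than DA. The 5 macrophage markers summed to 19162 to 20006 in F344 and 16563 to 18517 in LEW, with 3 higher in F344, and 1 was higher and 1 lower in COP than DA. Of 6 T and natural killer cell markers 2 were kept, both higher in COP than DA and 1 higher in F344 than LEW, and Cd3e, Cd3d, Cd2 and Klrd1 lay below the filter. All 6 together summed to 4473 to 4719 in F344, 3254 to 3776 in LEW, 5228 to 6396 in COP and 3070.0 to 4172 in DA. Of the 3 measured endothelial markers, 2 were higher in F344 than LEW and 1 was lower in COP than DA. Of the 4 measured osteoblast and 4 measured cartilage markers, 0 were called in F344 minus LEW and 0 in COP minus DA. Of the 4 muscle markers, 1 was higher in F344 than LEW and 2 were lower in COP than DA. Over all genes, limma called 14.5% in F344 minus LEW and 12.2% in COP minus DA. No marker was at 0. Their part in the signals of the class I genes, the pathway lists and the class II genes was not tested.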

How the data were processed

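The authors deposited 1 linear intensity signal per probe set and array. It was made with MAS5 (no version named), per the submitters' processing notes, from 5 ug of total RNA, per the labels' protocols. Their scaling target is not given in the sources used here. Precision is limited by how many arrays there are. From the 31099 probe sets 57 controls were removed. Signals under 1 were raised to 1 before taking log2, with no pseudocount. A filter at the 40th percentile of the mean log2 value (a signal of 174) left 18625. Strain means were estimated over all 16 arrays with limma 3.58.1 (R 4.3.3), using an intensity trend. P-values were two-sided and adjusted over all kept probe sets (Benjamini-Hochberg, threshold 0.05). The script was tested on simulated data. Figures used matplotlib 3.10.9.

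The platform annotation gave 1 symbol to 20826 probe sets, several to 436 and none to 9780, and 20758 identifiers matched the GRCr8 gene table. For gene lists, the brightest kept probe set stood for each gene. The members and lists were chosen with earlier results of these data known. All member probe sets are named; from each list, up to 4 genes with the largest COP minus DA difference among those called and up to 4 with the largest F344 minus LEW difference; and for each heavy chain the 3 genes with the highest Pearson r over the 16 arrays. Arrays of the same number did not deviate together (r of -0.173 to 0.0875 over 24 pairs), so no pairing was used. Normalization, pseudocount, filter, moderation, replicate block, samples in the fit, shared probe sets and left-out arrays were varied.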

Additional observations from a re-analysis of the deposited data

Results flagged for a closer look

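Within strains, 3 of 56 groups of 4 arrays (14 probe sets in 4 strains) held an array far from the other 3 for the group's range; chance gives about 1 in 20 groups, or 2.8. The shared B2m probe set (1367595_s_at) read 42931 in COP replicate 2 against 40135 to 40419 in the other COP arrays. The dim Tap1 probe set (1375379_at) read 11.9 in COP replicate 3 against 89.2 to 113 in the others. The dim RT1-CE5 probe set (1388254_a_at) read 33.8 in DA replicate 3 against 5.98 to 7.10 in the others. The latter 2 probe sets were not part of the fit.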

How the results depend on the processing

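The count of member probe sets called for COP minus DA was 0 under all 17 alternatives, among them only plain probe sets. The count for F344 minus LEW, 5 of 9, was 8 of 14 with no filter and 3 of 7 with the filter at the 60th percentile, which test other numbers of probe sets. For COP minus DA, Tapbp was -0.0011 after quantile normalization and -0.0101 after median centring, and Tap1 was -0.0028 after median centring. Leaving out each array in turn gave -0.0347 to 0.0648 for Tapbp, -0.0663 to 0.077 for Tap1, -0.0335 to 0.1838 for RT1-CE5 and -0.0943 to 0.0961 for RT1-T24-4. None of these was called, and the cause was not tested. The count over all probe sets was 1524 to 2255 (2211 as reported) and that of the presentation list 6 to 10 (8 as reported). With the replicate number as a block, 2087 probe sets, 0 members and 9 list genes were called for COP minus DA, and 5 members for F344 minus LEW; RT1-A had an adjusted p of 0.125 (limma). Among the member probe sets and the genes named for COP minus DA, the block changed no call. With no filter, the 5 member probe sets that it had left out had standard errors of 0.34 to 0.83 on the log2 scale, against 0.056 to 0.18 for the 9 kept.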
